A study of Mus musculus with 12 samples.

Results

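The dual-specificity MAP kinase phosphatases remove phosphate from the MAP kinases ERK, JNK and p38, and RNA sequencing measured their mRNA in mouse macrophages and osteoclasts with and without bacterial lipopolysaccharide (LPS). The genes were chosen by name: Dusp1, Dusp2, Dusp3, Dusp4, Dusp5, Dusp6, Dusp7, Dusp10, Dusp14 and Dusp16, which are 10 of the 54532 Ensembl genes measured. All 10 were found by symbol, and 9 of them passed the filter for testing, which required 1 FPKM or more in 3 or more libraries. Dusp10 did not reach 1 FPKM in any library and is given by its values. FPKM counts sequenced fragments per kilobase of gene, so levels can be set side by side between genes.

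The 12 libraries formed 4 groups of 3: untreated macrophages, macrophages with LPS, untreated osteoclasts and osteoclasts with LPS. All cells came from the marrow of wild-type mice and were expanded with CMG, a source of the growth factor M-CSF. Osteoclasts, the bone-resorbing cells, were obtained with the cytokine RANKL, which the labels give as 100 ng/mL in the sample source and as a range in the protocol, and the macrophages had no RANKL. On day 5 the treated cells received LPS for 3 h at 100 ng/mL, so 1 dose and 1 time were measured, and the age of the mice is not stated. The labels do not say whether the 3 libraries of a group came from separate cultures or mice, so p-values measure only the spread between these libraries.

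MAP kinases are switched on by phosphorylation of a threonine and a tyrosine, and these phosphatases remove both phosphates. Dusp1, Dusp2, Dusp4 and Dusp5 encode nuclear enzymes whose genes are themselves induced by signalling, Dusp6 and Dusp7 encode cytoplasmic enzymes directed at ERK, and Dusp10 and Dusp16 encode enzymes directed at JNK and p38. Dusp3 and Dusp14 encode small phosphatases that lack the MAP kinase binding domain of the others. In macrophages Dusp1 is known as a brake on p38 and on cytokine production after LPS, and in osteoclast precursors ERK, JNK and p38 act downstream of RANKL and M-CSF.

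The stretch that makes these genes one family is the catalytic loop, in which a cysteine attacks the phosphate and an arginine holds it. The 24 coding bases of that loop are shown for each gene, 5′ to 3′ on the coding strand, read from GENCODE M21 transcripts, with the codons of the cysteine and the arginine in capitals.
Dusp1: catTGCcaggccggcatctccCGG
Dusp2: cacTGCcaagctggcatctctCGC
Dusp3: catTGCcgcgagggctacagcCGC
Dusp4: cacTGCcaggccggcatctccCGA
Dusp5: cacTGCgaagctggggtttccCGG
Dusp6: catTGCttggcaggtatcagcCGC
Dusp7: cacTGCctagcaggcatcagcCGT
Dusp10: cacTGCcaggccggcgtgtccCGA
Dusp14: cacTGTgcggcaggcgtgagcCGC
Dusp16: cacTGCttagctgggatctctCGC
In Dusp1 the stretch lies at chr17:26506592-26506615 (mm10, minus strand), and its cysteine is codon 258. Each gene had 1 such match, and each match lay within 1 exon. Compared with Dusp1, the Dusp4 stretch was identical at 22 of 24 bases, Dusp10 at 20, Dusp2 at 19, Dusp5, Dusp6 and Dusp7 at 17, Dusp16 at 16, Dusp3 at 15 and Dusp14 at 14. Dusp14 alone of the 10 wrote the cysteine as TGT, and the other 9 wrote it as TGC. In macrophages the closest relative of Dusp1 in this stretch, Dusp4, moved the opposite way from Dusp1 after LPS, as the values below show. In osteoclasts neither gene passed the main test. Likeness of sequence was not tested against expression.

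Promoters are shown for the genes with the widest changes and for Dusp5. The RefSeq promoter table (GRCm38.p6) held 9 of the 10 genes, and Dusp4 is not in it. The bases from 250 to 51 before the start site are printed, 5′ to 3′ on the gene's strand, with a full cAMP response element (CRE) and the CArG boxes in capitals. The windows are chr17:26508523-26508722 on the minus strand, chr2:127335909-127336108 on the plus strand, chr19:53528895-53529094 on the plus strand and chr10:99262981-99263180 on the plus strand.
Dusp1: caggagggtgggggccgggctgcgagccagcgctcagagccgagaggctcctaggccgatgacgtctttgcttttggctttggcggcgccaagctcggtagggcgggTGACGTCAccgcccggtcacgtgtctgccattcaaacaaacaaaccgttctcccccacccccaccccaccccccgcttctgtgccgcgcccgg
Dusp2: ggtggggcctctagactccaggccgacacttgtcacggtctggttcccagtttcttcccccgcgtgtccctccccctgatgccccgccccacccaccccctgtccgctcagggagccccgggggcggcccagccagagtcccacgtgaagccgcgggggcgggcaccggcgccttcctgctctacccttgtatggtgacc
Dusp5: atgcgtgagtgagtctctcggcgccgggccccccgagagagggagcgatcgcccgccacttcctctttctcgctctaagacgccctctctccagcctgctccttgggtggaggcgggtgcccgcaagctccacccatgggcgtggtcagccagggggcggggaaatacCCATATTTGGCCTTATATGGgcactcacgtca
Dusp6: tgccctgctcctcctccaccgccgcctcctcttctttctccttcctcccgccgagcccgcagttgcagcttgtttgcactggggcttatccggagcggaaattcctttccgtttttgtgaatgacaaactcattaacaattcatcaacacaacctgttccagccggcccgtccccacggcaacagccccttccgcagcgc
The window searched for motifs ran from 250 bases before to 50 after the start, on both strands. The full CRE, TGACGTCA, lay in 1 of the 9 promoters, that of Dusp1, beginning 143 bases before the start, and in 1.8% of all 32851 promoters in the table. A pair of adjoining CArG boxes, the core of a serum response element, began 82 and 72 bases before the start of Dusp5, and 1.6% of all promoters held one; this search was added after the sequences had been seen. A loose NF-kB pattern, GGG and CC with any 5 bases between them, was in 8 of 9 promoters against 50.8% of all, and a loose serum response pattern, CC and GG with any 6 bases between them, which every CArG box also matches, was in 8 of 9 against 73.3%. The AP-1 pattern TGANTCA and the ETS pattern CCGGAAG were in none of the 9 windows, against 7.8% and 8.9% of all promoters. These are matches of letters and were not tested against the expression values.

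Between 15651770 and 20281456 reads per library were assigned to genes, and the libraries detected 9728 to 10301 genes at 1 FPKM or more. Replicates of a group differed by more than counting error, as pairs gave chi-square values of 2.54 to 11.6 for each degree of freedom, highest between LPS-treated osteoclasts 1 and 2. The osteoclast markers, 10 genes, summed to 16.3 to 20.5 FPKM in untreated and 24.7 to 29 FPKM in LPS-treated macrophages and to 29200 to 32200 FPKM in the osteoclast libraries. The 8 macrophage markers summed to 1540 to 1550 FPKM in untreated and 2390 to 2460 in LPS-treated macrophages, and to 371 to 377 and 385 to 421 in osteoclasts, and the 5 LPS response markers went from 120 to 125 to 7930 to 8130 FPKM in macrophages and from 216 to 234 to 541 to 706 in osteoclasts. Markers of B cells, T cells and erythroid cells summed to at most 0.135 FPKM in any library. The 3 dendritic cell markers summed to 0.0581 to 0.107 FPKM in untreated and 0.157 to 0.36 in LPS-treated macrophages, and to 0.536 to 0.56 and 0.889 to 1.33 FPKM in osteoclasts, with Cd209a at 0 in all osteoclast libraries. The 5 stromal markers summed to 24.8 to 34.7 FPKM in macrophages and to at most 0.605 in osteoclasts, with Cxcl12 at 0 in all osteoclast libraries. The 5 neutrophil markers summed to 4.08 to 11.8 FPKM in macrophages and at most 1.62 in osteoclasts, with Ly6g and Elane at 0 in all osteoclast libraries. Mitochondrial genes took 1.504 to 1.62% of the reads in untreated and 1.27 to 1.37% in LPS-treated macrophages, and 5.16 to 6.18% in osteoclasts. The macrophage, osteoclast, dendritic cell, stromal and neutrophil marker levels and the mitochondrial share moved with the cell type. With LPS, the macrophage and dendritic cell marker levels moved in both cell types, and the osteoclast markers and the mitochondrial share in macrophages; their part in the phosphatase differences was not tested.

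The makeup of the family differed by group. Untreated macrophages held mostly Dusp6, Dusp7 and Dusp4: Dusp6 made up 36.9% ± 1.4 of the summed FPKM of the 10 genes (SD, n = 3), Dusp7 20.4% ± 0.714 and Dusp4 18.3% ± 0.279. After LPS, Dusp2 made up 52.1% ± 1.74 of the sum in macrophages and Dusp1 35.1% ± 2.52, while Dusp6 was at 0.314% ± 0.0139. In untreated osteoclasts Dusp4 made up 48.5% ± 1.31 and Dusp3 25.2% ± 0.648, and with LPS the shares were 50.9% ± 0.985 and 22.1% ± 0.661. The sum itself was 186.8 ± 8.32 FPKM in untreated macrophages and 522.2 ± 28.7 with LPS, against 173.9 ± 6.11 in untreated osteoclasts and 185.7 ± 6.86 with LPS. The macrophage ratio of 2.80 depends on the scaling: after rescaling to TPM, tried after seeing the data, it was 1.79. For osteoclasts against untreated macrophages, the ratio of the sums went from 0.93 to 0.7 without LPS and from 0.99 to 0.71 with LPS. These are descriptions of the level, with no test. In bulk libraries a smaller share of cells expressing a gene cannot be told apart from less RNA per cell.

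**Figure D1:**
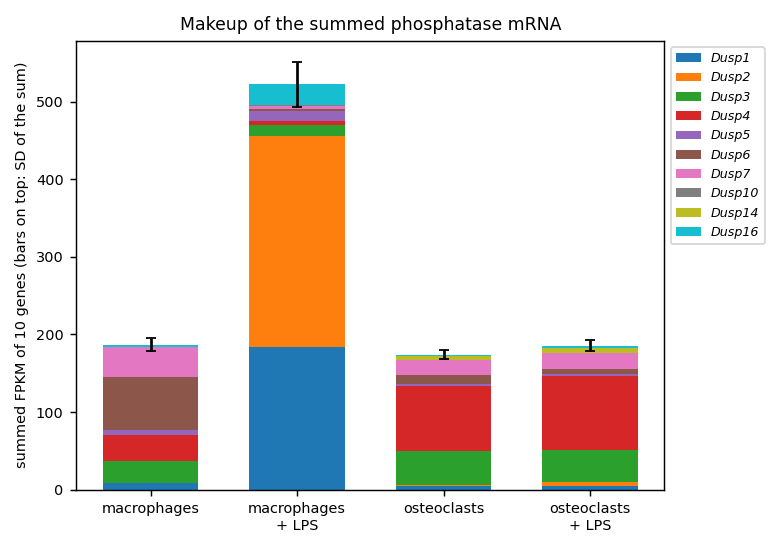
Stacked bars give the mean FPKM of each of the 10 genes in the 4 groups, and black bars show the SD of the sum over 3 libraries. Dusp2 and Dusp1 fill most of the LPS-treated macrophage bar, which reaches 522.2 FPKM, and Dusp4 is the widest segment in both osteoclast bars.

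LPS changed all 9 tested phosphatases in macrophages: 5 were higher and 4 were lower, each with no overlap between the libraries of the 2 groups. Of all 11335 tested genes, 69.9% were called in this comparison, 36.8% higher and 33.1% lower, and the libraries did not overlap for 74.0%, so being called is common here. The median log2 difference of the 9 was 0.81 against 0.02 over all tested genes. In osteoclasts 4 of the 9 were called, 3 higher and 1 lower, against 17.7% of all tested genes (11.1% higher, 6.59% lower; 34.0% without overlap between the libraries), with a median of 0.16 against 0.01. That share depends on the fit: with only the osteoclast groups fitted, 12.3% of all tested genes were called. The difference between both LPS effects, the interaction, was called for all 9, 4 of them higher and 5 lower, with 56.6% of all tested genes called, 26.6% higher and 30.0% lower. The sign of an interaction is that of the osteoclast effect minus the macrophage effect. Log2 differences are of log2(FPKM + 1) throughout, a scale that makes the change of scarce mRNAs look smaller than it is. The comparisons share the same libraries and are not independent of each other.

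**Figure D2:**
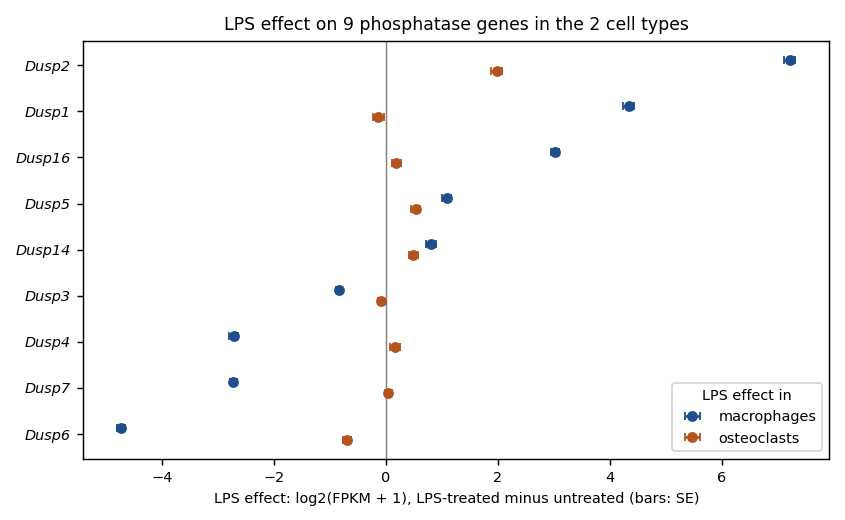
Points give the LPS effect, treated minus untreated, on the log2(FPKM + 1) scale for the 9 tested genes, in macrophages (blue) and osteoclasts (orange), with SE bars. The macrophage values run from -4.73 for Dusp6 to 7.21 for Dusp2, and the osteoclast values lie between -0.69 and 1.98.

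Among the nuclear enzymes, Dusp1 (chr17:26505590-26508519, minus strand; gene positions are on mm10, from GENCODE M21) was induced in macrophages. Its level was 7.57, 8.14 and 8.67 FPKM in the 3 untreated macrophage libraries and 158.4, 202 and 190.4 FPKM with LPS. In osteoclasts it was 5.16, 5.40 and 4.95 FPKM without LPS and 4.25, 5.48 and 4.16 FPKM with it. All 3 LPS-treated macrophage libraries stood far above the other 9, and the osteoclast groups overlapped. The LPS effect in macrophages was 4.33 log2 units (SE 0.10, adjusted p = 3.26e-12), a ratio of mean FPKM of 22.6. In osteoclasts the difference was -0.14 (SE 0.10, adjusted p = 0.389), and the effects differed between cell types by -4.47 (SE 0.14, adjusted p = 2.55e-10). Without LPS, Dusp1 was lower in osteoclasts than in macrophages by a ratio of 1.57 (log2 difference -0.56, adjusted p = 2.39e-04), and with LPS by a ratio of 39.6. The difference without LPS was wider after rescaling to TPM, as given below. The position given is that of the exons whose summed length, 2697 bases, the deposited values imply; the annotation has 4 further exons that this length does not hold.

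Dusp2 (chr2:127336159-127338376, plus strand), known from activated immune cells, had the widest range of the 10. It was scarce without LPS, at 0.711, 1.04 and 0.785 FPKM in macrophages and 0.703, 0.650 and 0.881 FPKM in osteoclasts. With LPS it reached 263.4, 272.1 and 279.9 FPKM in macrophages and 6.88, 4.83 and 5.99 FPKM in osteoclasts. The untreated groups of the cell types overlapped (log2 difference -0.08, adjusted p = 0.492), and each LPS-treated group stood above its untreated group. The effect was 7.21 log2 units in macrophages (SE 0.10, adjusted p = 1.06e-13), a 322-fold ratio of means that rests on 117 reads over the 3 untreated libraries. In osteoclasts it was 1.98 (SE 0.10, adjusted p = 6.14e-08), a ratio of 7.92. Dusp2 thus rose in both cell types, and the interaction was -5.24 (SE 0.14, adjusted p = 8.22e-11). With LPS its mean in osteoclasts was lower than in macrophages by a ratio of 46.1.

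Dusp4 (chr8:34807297-34819894, plus strand), a nuclear enzyme acting on ERK and JNK, moved the other way in macrophages. Macrophages held 35.0, 34.7 and 32.8 FPKM without LPS and 4.29, 5.16 and 3.71 FPKM with it. Osteoclasts held 78.8, 85.9 and 88.7 FPKM without LPS and 90.0, 96.9 and 96.8 FPKM with it. Every osteoclast library was above every macrophage library. Between cell types, 81.4% of all tested genes had no overlap without LPS and 83.6% with it. In macrophages Dusp4 fell by 2.72 log2 units (SE 0.08, adjusted p = 3.07e-11), a ratio of 7.79. The osteoclast groups did not overlap, as for 34.0% of all tested genes, and their difference of 0.16 did not pass the test (adjusted p = 0.209). In voom on the recovered reads it did, at 0.16 with an adjusted p of 0.0357. The interaction was 2.88 (SE 0.12, adjusted p = 1.64e-09). Osteoclasts exceeded macrophages by a ratio of 2.47 without LPS (log2 difference 1.28, adjusted p = 2.20e-08) and of 21.6 with LPS (4.16, adjusted p = 4.59e-13).

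Dusp5 (chr19:53529109-53542431, plus strand), a nuclear enzyme directed at ERK, rose in both cell types. Macrophages held 5.20, 6.04 and 6.37 FPKM without LPS and 12.6, 14.3 and 13.8 FPKM with it. Osteoclasts held 1.53, 1.56 and 1.33 FPKM without LPS and 2.94, 2.47 and 2.37 FPKM with it. No 2 of the 4 groups overlapped. By comparison of 2 groups, 34.0% to 83.6% of all tested genes had no overlap. The LPS effect was 1.08 log2 units in macrophages (SE 0.08, adjusted p = 1.42e-07), a ratio of 2.31, and 0.54 in osteoclasts (SE 0.08, adjusted p = 6.29e-04), a ratio of 1.76. The macrophage effect was smaller after rescaling to TPM, as given below. The interaction of -0.55 (adjusted p = 1.48e-03) reversed to 0.09 (adjusted p = 0.557) when the values were rescaled to TPM, and was -0.40 (adjusted p = 0.111) in voom. Osteoclasts were lower than macrophages by a ratio of 3.98 without LPS (log2 difference -1.47, adjusted p = 5.16e-09) and of 5.22 with LPS (-2.02, adjusted p = 1.90e-10). Dusp5 shares 547 exon bases, 22.1% of its length, with an antisense gene, and strand use in counting is not stated, so its values are uncertain to that extent.

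**Figure D3:**
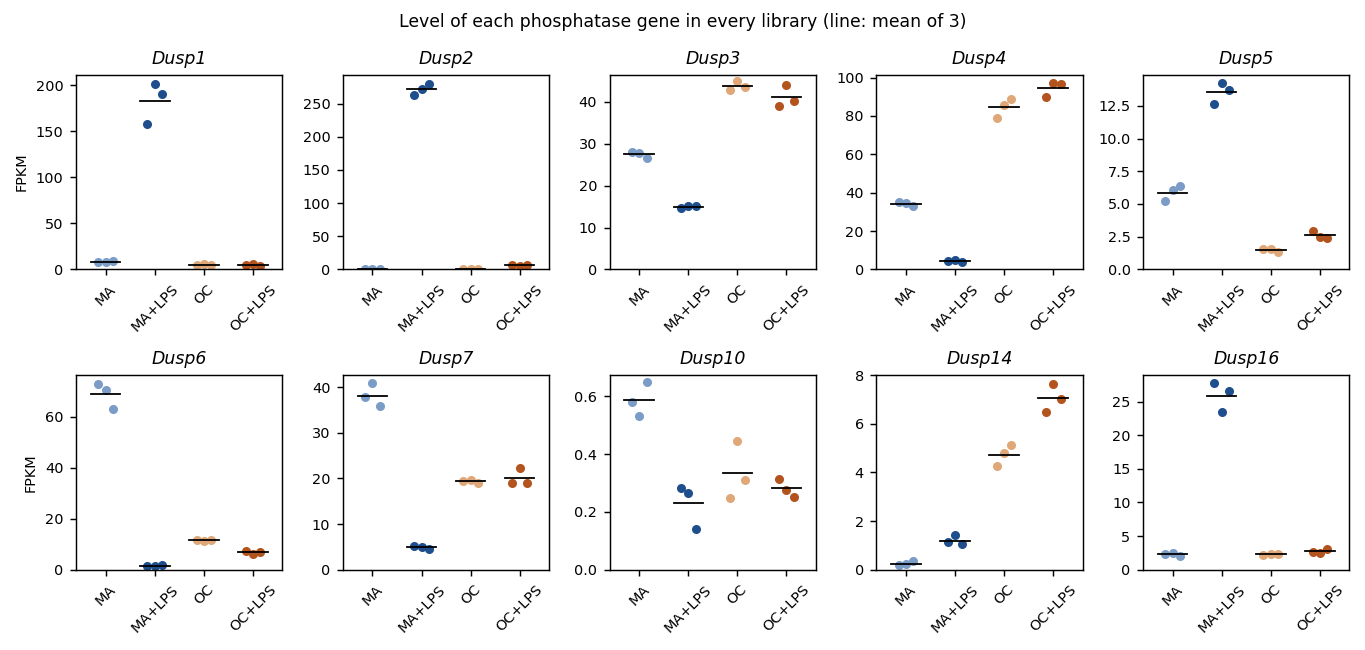
Each panel gives the FPKM of 1 gene in all 12 libraries (points) and the mean of each group of 3 (lines), with MA for macrophages and OC for osteoclasts and a linear axis of its own from 0. Dusp1, Dusp2, Dusp5 and Dusp16 are highest in LPS-treated macrophages, Dusp6, Dusp7 and Dusp10 in untreated macrophages, and Dusp3, Dusp4 and Dusp14 in osteoclasts.

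The cytoplasmic, ERK-directed pair Dusp6 and Dusp7 both fell in macrophages, and in osteoclasts Dusp6 passed the test and Dusp7 did not. Dusp6 (chr10:99263231-99267489, plus strand), whose own transcription is a textbook readout of ERK activity, was at 73.0, 70.7 and 63.0 FPKM in untreated macrophages and at 1.501, 1.65 and 1.77 FPKM with LPS. Osteoclasts held 11.5, 11.4 and 11.8 FPKM without LPS and 7.35, 6.13 and 6.89 FPKM with it. No 2 of the 4 groups overlapped, and the lowest was LPS-treated macrophages. Separation is common here: by comparison of 2 groups, 34.0% to 83.6% of all tested genes had no overlap. Dusp6 fell by 4.73 log2 units in macrophages (SE 0.07, adjusted p = 1.20e-13), a ratio of means of 42.0, and by 0.69 in osteoclasts (SE 0.07, adjusted p = 2.13e-05), a ratio of 1.70. The interaction was 4.03 (SE 0.10, adjusted p = 3.57e-11). Osteoclasts were therefore below macrophages without LPS, by a ratio of 5.96 (log2 difference -2.48, adjusted p = 1.05e-11), and above them with LPS, by a ratio of 4.14 (1.56, adjusted p = 4.53e-10).

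Dusp7 (chr9:106368632-106375724, plus strand) was at 37.7, 40.9 and 35.9 FPKM in untreated macrophages and at 5.18, 5.01 and 4.58 FPKM with LPS. Osteoclast libraries held 19.5, 19.6 and 18.9 FPKM without LPS and 18.9, 22.2 and 19.1 FPKM with it. The macrophage groups stood far apart and the osteoclast groups overlapped. Dusp7 fell by 2.72 log2 units in macrophages (SE 0.07, adjusted p = 5.16e-12), a ratio of 7.75, and its osteoclast difference was 0.05 (SE 0.07, adjusted p = 0.697). The interaction was 2.77 (SE 0.10, adjusted p = 4.04e-10). As for Dusp6, the order of the cell types turned with LPS: osteoclasts were lower by a ratio of 1.97 without it (log2 difference -0.94, adjusted p = 5.59e-08) and higher by a ratio of 4.07 with it (1.83, adjusted p = 8.08e-11).

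Of the enzymes directed at JNK and p38, Dusp16 (chr6:134715468-134792625, minus strand) was induced in macrophages. It was at 2.30, 2.55 and 2.11 FPKM without LPS and 27.7, 23.4 and 26.6 FPKM with it. The osteoclast libraries were at 2.24, 2.38 and 2.27 FPKM without LPS and 2.69, 2.50 and 3.08 FPKM with it. LPS-treated macrophages stood apart from the other 9 libraries, which ranged from 2.11 to 3.08 FPKM. The macrophage effect was 3.02 log2 units (SE 0.08, adjusted p = 6.34e-12), a ratio of 11.2. The osteoclast libraries did not overlap, again as for 34.0% of all tested genes, and the difference of 0.19 did not pass the test (adjusted p = 0.12), and the interaction was -2.83 (SE 0.11, adjusted p = 1.05e-09). Untreated cell types overlapped (log2 difference -0.01, adjusted p = 0.934), and with LPS osteoclasts were lower by a ratio of 9.39.

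Dusp10 (chr1:184013302-184075636, plus strand), the other phosphatase of JNK and p38, was scarce everywhere. It was at 0.582, 0.531 and 0.650 FPKM in untreated macrophages, from 41, 38 and 44 reads, and at 0.283, 0.264 and 0.140 FPKM with LPS, from 11, 12 and 6 reads. In osteoclasts it was at 0.249, 0.447 and 0.310 FPKM without LPS and 0.315, 0.277 and 0.252 FPKM with it. The untreated macrophages were above the other 9 libraries, among which the groups overlapped. Dusp10 was outside the main test. With no filter on low values its macrophage difference was -0.37 log2 units (SE 0.07, adjusted p = 0.00112), and osteoclasts differed from macrophages by -0.25 without LPS (adjusted p = 0.0102).

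The small phosphatases were the osteoclast-high members beside Dusp4. Dusp3 (chr11:101971143-101987013, minus strand), which acts on ERK and JNK, was at 28.1, 27.9 and 26.6 FPKM in untreated macrophages and 14.6, 15.1 and 15.2 FPKM with LPS. In osteoclasts it was at 42.9, 45.03 and 43.5 FPKM without LPS and 39.0, 44.0 and 40.3 FPKM with it. Osteoclast libraries were all above macrophage libraries, and both osteoclast groups overlapped. Between cell types, 81.4% of all tested genes had no overlap without LPS and 83.6% with it. Dusp3 fell by 0.84 log2 units in macrophages (SE 0.05, adjusted p = 8.53e-09), a ratio of 1.84. Its osteoclast difference was -0.09 (adjusted p = 0.206), and became called without the second LPS-treated osteoclast library (-0.14, adjusted p = 0.0356) and under quantile normalization (-0.17, adjusted p = 0.0189). The interaction was 0.75 (SE 0.07, adjusted p = 1.35e-06). Both the macrophage fall and the interaction were larger after rescaling to TPM, as given below. Osteoclasts were higher by a ratio of 1.59 without LPS (log2 difference 0.65, adjusted p = 6.11e-08; 0.25 and adjusted p = 0.00156 after rescaling to TPM) and of 2.75 with it. Dusp3 shares 604 exon bases with the antisense gene Gm20659, which was listed at 0 in every group.

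Dusp14 (chr11:84048041-84069261, minus strand), a small phosphatase studied mainly in T cells, was scarcest in untreated macrophages, at 0.200, 0.219 and 0.346 FPKM. With LPS the macrophages held 1.13, 1.41 and 1.06 FPKM, and the osteoclasts held 4.26, 4.81 and 5.11 FPKM without LPS and 6.49, 7.64 and 7.01 FPKM with it. No 2 of the 4 groups overlapped. By comparison of 2 groups, 34.0% to 83.6% of all tested genes had no overlap. Dusp14 rose by 0.81 log2 units in macrophages (SE 0.09, adjusted p = 3.37e-06), which is a ratio of 4.71 on 34 reads over the untreated libraries, and by 0.49 in osteoclasts (SE 0.09, adjusted p = 1.70e-03), a ratio of 1.49. Its interaction of -0.32 (adjusted p = 0.0409) was lost in 7 of the 12 fits that left out 1 library, with adjusted p from 0.0688 to 0.0978 and values of -0.32 to -0.25. Those libraries were untreated macrophages 1 and 2, LPS-treated macrophages 2, untreated osteoclasts 2 and 3, and LPS-treated osteoclasts 1 and 3. With a pseudocount of 0.1 the interaction was -1.32 (adjusted p = 3.74e-04) and the macrophage effect 1.89. Without LPS, Dusp14 was higher in osteoclasts than in macrophages by a ratio of 18.5 (log2 difference 2.19, adjusted p = 2.03e-10), the widest ratio among the 9 in that comparison.

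Between untreated cell types 7 of the 9 phosphatases were called, 3 higher in osteoclasts (Dusp3, Dusp4 and Dusp14) and 4 lower (Dusp1, Dusp5, Dusp6 and Dusp7), with 77.8% of all tested genes called, 38.8% higher and 39.0% lower, and 81.4% without overlap between the libraries. With LPS all 9 were called, 5 higher in osteoclasts and 4 lower, against 83.9% of all tested genes, 40.9% higher and 43.0% lower, and 83.6% without overlap. The 3 osteoclast-high genes were joined on the higher side by Dusp6 and Dusp7, and Dusp2 and Dusp16 joined Dusp1 and Dusp5 on the lower side. The labels do not give the scaling of the authors' values. The FPKM denominator recovered from them was 0.799 to 1.25 times the assigned reads of a library, so the values appear not to be per assigned read, which is an inference from the values. Rescaling to TPM, which makes the sum of each library equal, moved the median log2 difference of all tested genes to -0.56 for the LPS effect in macrophages, -0.38 between untreated cell types and 0.51 for the interaction, from 0.02, 0.00 and -0.01. It moved the calls over all genes in macrophages from 4168 higher and 3753 lower to 1797 and 7933, those between untreated cell types from 4401 and 4421 to 2760 and 6457, and those of the interaction from 3012 and 3401 to 7175 and 1572, which is 77.2% of all tested genes. No macrophage or osteoclast LPS call of the 9 tested genes was lost or reversed by it, though the macrophage effect of Dusp3 became -1.503 and that of Dusp5 0.541. Between untreated cell types it added Dusp2 (-0.43, adjusted p = 0.00631) and Dusp16 (-0.38, adjusted p = 0.00151) to the lower side, changes close to the shift of the median.

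Other genes were taken as lists, the other dual-specificity phosphatases by family, whatever their substrate, and the rest by function. Of 15 other dual-specificity phosphatase genes 10 were tested, and LPS in macrophages raised 2 and lowered 3, with 69.9% of all tested genes called, while none was called in osteoclasts in the limma test. In osteoclasts 0 of the 10 had an unadjusted p under 0.05, and voom also called 0, with 17.7% of all tested genes called in osteoclasts in the limma test. After rescaling to TPM 2 rose and 7 fell in macrophages. Between untreated cell types 8 of these 10 were higher in osteoclasts and 1 lower, or 5 and 2 after rescaling to TPM, with 38.8% of all tested genes called higher and 39.0% lower before rescaling. Dusp9, an ERK-directed relative of Dusp6 and Dusp7, was at 0.813 ± 0.286 FPKM in untreated macrophages and 3.03 ± 0.611 in untreated osteoclasts (SD, n = 3; log2 difference 1.15, adjusted p = 3.46e-06). Among 5 tested of 7 other phosphatases of MAP kinases, 3 rose and 2 fell in macrophages, and 1 rose and 1 fell in osteoclasts (Ppm1b rose by 0.17, which lost its call after rescaling to TPM, at 0.11 with an adjusted p of 0.225, and also with the replicate block, at 0.17 with an adjusted p of 0.0563, and when any 1 of the untreated osteoclast libraries, LPS-treated osteoclast library 1 or LPS-treated osteoclast library 2 was left out). After that rescaling 1 rose and 2 fell in macrophages. Ptpn7, a tyrosine phosphatase of ERK and p38 in blood cells, fell from 33.1 ± 1.02 to 4.50 ± 0.114 FPKM in macrophages (-2.63 log2 units, adjusted p = 3.41e-11) and from 2.61 ± 0.219 to 1.21 ± 0.270 in osteoclasts (-0.71, adjusted p = 6.22e-05).

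The kinases that these phosphatases oppose were tested for 22 of 24 genes. In macrophages 13 rose and 4 fell, with 69.9% of all tested genes called, a split that rescaling to TPM turned to 5 and 15. In osteoclasts 3 rose and 3 fell, with 17.7% of all tested genes called. Only 1 of the 22 fell without untreated osteoclast library 3 or without LPS-treated osteoclast library 1, and 6 did under quantile normalization. Map3k8, the kinase that links LPS receptors to ERK, rose from 1.97 ± 0.0753 to 60.6 ± 1.59 FPKM in macrophages (4.37 log2 units, adjusted p = 3.46e-14) and from 1.20 ± 0.0440 to 3.67 ± 0.284 in osteoclasts (1.08, adjusted p = 3.85e-08). Map3k5, an activator of the JNK and p38 branches, rose by 1.85 in macrophages (adjusted p = 4.01e-11), and Map2k4, the kinase below it, rose by 1.77 (adjusted p = 1.56e-11). Their osteoclast differences were -0.03 and 0.04, with adjusted p of 0.788 and 0.658. Of 8 tested kinases downstream of MAP kinases, out of 9, 5 rose and 3 fell in macrophages (3 and 3 after rescaling to TPM). In osteoclasts 1 rose, and 2 rose and 1 fell without LPS-treated osteoclast library 2. Mapkapk2, the p38 target that stabilises cytokine mRNAs, rose from 75.2 ± 1.90 to 519 ± 22.8 FPKM in macrophages (2.77, adjusted p = 4.05e-13) and from 87.4 ± 1.99 to 133 ± 8.28 in osteoclasts (0.59, adjusted p = 4.48e-06).

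Dusp6 is one of several genes known to follow ERK activity, and 12 others of a list of 16 feedback inhibitors and target genes were tested. In macrophages 7 fell and 3 rose, or 9 and 3 after rescaling to TPM, and in osteoclasts 2 fell and 2 rose. Of all tested genes 69.9% were called in macrophages, 33.1% lower, and 17.7% in osteoclasts. The median log2 difference of the 12 was -0.27 in macrophages against 0.02 over all tested genes, and 0.04 in osteoclasts against 0.01. Etv5, a transcription factor induced by ERK, fell from 73.9 ± 0.605 to 16.7 ± 1.19 FPKM in macrophages (-2.08, adjusted p = 6.92e-10) and from 3.39 ± 0.244 to 1.57 ± 0.352 in osteoclasts (-0.78, adjusted p = 6.64e-05). Spry2, a feedback inhibitor of the pathway, fell by 1.18 in macrophages (adjusted p = 4.08e-07), and its osteoclast difference was 0.12 (adjusted p = 0.476). Not all members of that list moved with Dusp6: Spred1, another inhibitor of the pathway, rose from 36.0 ± 1.59 to 119 ± 2.79 FPKM in macrophages (1.70, adjusted p = 4.25e-12), and Ier3, an early response gene, rose by 2.50 (adjusted p = 2.50e-09).

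**Figure D4:**
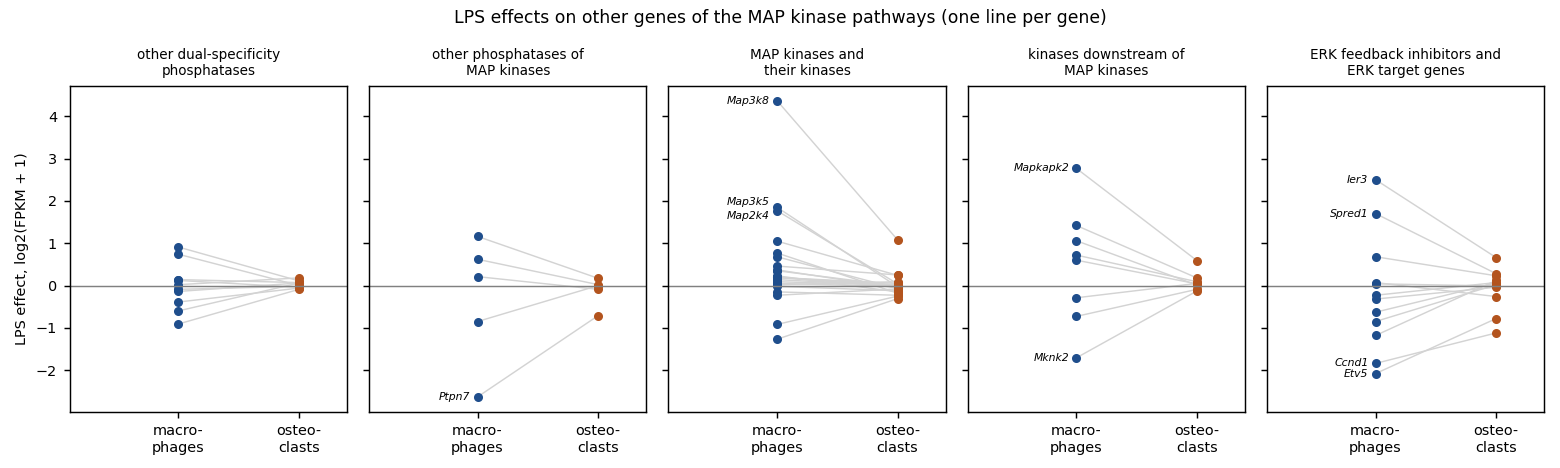
Each line joins the LPS effect of 1 gene in macrophages (blue) and osteoclasts (orange), on the log2(FPKM + 1) scale, for the tested genes of the 5 lists. Map3k8 at 4.37, Mapkapk2 at 2.77 and Ptpn7 at -2.63 stand out in macrophages, and their osteoclast values are 1.08, 0.59 and -0.71.

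For the 3 phosphatases with the widest range, the genes with the most similar pattern over the 4 group means were taken from 7568 other genes, by the root mean square difference of log2(FPKM + 1) after centring. Nearest to Dusp2, whose means spanned 7.29 log2 units, were Iigp1 at 0.07, Socs1 at 0.21 and Ifi205 at 0.22. Socs1, an inhibitor of cytokine receptor signalling, was at 0.180, 188 and 0.281 FPKM in untreated macrophages, LPS-treated macrophages and untreated osteoclasts and at 5.52 FPKM in LPS-treated osteoclasts. Nearest to Dusp1, with a span of 5.03, were the transcription factor Nfil3 at 0.29, Cish at 0.30 and Lipg at 0.37, and Cish shares exon sequence with other annotated genes. Nearest to Dusp6, with a span of 4.73, were the transcription factor Hhex at 0.41, Sesn1 at 0.47 and Ccsap at 0.57. Hhex was at 38.9 FPKM in untreated and 1.97 FPKM in LPS-treated macrophages, and at 5.84 and 4.31 FPKM in osteoclasts. With 4 group means this likeness is a description only.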

How the data were processed

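RNA sequencing of 12 libraries was analysed. Per the submitters' processing notes, fastp, STAR, featureCounts and DESeq2 were used on mm10, with roles and versions not given in the sources used here; the authors deposited FPKM values for 54532 genes. The values were whole multiples of 1 read's worth for 96.7% of the 25854 genes above 0 at GENCODE M21 exon lengths (tolerance 0.02) and for the rest at another length. The members and lists were chosen with earlier results of these data known. The 11335 genes that reached 1 FPKM in 3 or more libraries were fitted with limma 3.58.1 (R 4.3.3; lmFit, eBayes with trend) on log2(FPKM + 1), with 4 group means in 1 fit. Tests were two-sided and Benjamini-Hochberg adjusted over all tested genes, and called under 0.05. All 10 phosphatases and, from the lists, chosen genes are named, and the 3 genes most like each of the 3 widest-ranging phosphatases. Alternatives were TPM, quantile normalization, a pseudocount of 0.1, testing without the filter or with a mean of 5 FPKM or more, the groups compared only, voom on the recovered reads, the replicate block and leaving out each library. Sequences came from GENCODE M21 and RefSeq and were searched with Python 3.11.15 and Biopython 1.88. The fit was also run on simulated data, and no result of that run is given or used here.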

Additional observations from a re-analysis of the deposited data

Results flagged for a closer look

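The LPS effects of the 9 tested phosphatases in the 2 cell types passed the test of their difference (osteoclasts minus macrophages, log2(FPKM + 1), 3 libraries a group), as did 56.6% of all tested genes, or 77.2% after rescaling to TPM. The difference was -5.24 for Dusp2, -4.47 for Dusp1, -2.83 for Dusp16, -0.55 for Dusp5 and -0.32 for Dusp14, and 4.03 for Dusp6, 2.88 for Dusp4, 2.77 for Dusp7 and 0.75 for Dusp3. Dusp5 and Dusp14 did not hold under every alternative: Dusp5 was 0.085 (adjusted p = 0.557) after rescaling to TPM, and Dusp14 lost its call in 7 of the 12 fits that left out 1 library.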

How the results depend on the processing

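Of 670 values of single phosphatases under an alternative, Dusp10 aside, 648 kept their sign and their side of the threshold, 7 that were called in neither fit changed sign, 9 lost the call, 5 gained one and 1 called value reversed. The 7 were the Dusp7 effect in osteoclasts and the Dusp2 and Dusp16 differences between untreated cell types. The called value was the Dusp5 interaction, 0.085 after rescaling to TPM; it lost its call in voom (-0.40). The Dusp14 interaction lost its call with no filter (-0.32, adjusted p = 0.0934) and without any of 7 single libraries. With a pseudocount of 0.1 that interaction was -1.32 and its macrophage effect 1.89, and in voom -1.67 and 2.24. Rescaling to TPM moved the macrophage effect of Dusp3 to -1.50 and of Dusp5 to 0.54, the Dusp3 interaction to 1.34 and that of Dusp14 to -0.53, and the Dusp1 difference between untreated cell types to -1.02. The summed level of the family in macrophages with LPS against without was 1.79 after rescaling to TPM and 2.80 before. Without the filter 25854 genes were tested, and the share called fell to 36.1% (LPS in macrophages), 6.35% (LPS in osteoclasts), 42.2% and 46.4% (cell types without and with LPS) and 26.4% (interaction). The number of phosphatases that LPS lowered within osteoclasts was 1 in the main fit, 2 under quantile normalization and 1 to 2 when a library was left out. With 3 libraries a group, the values cannot settle whether the same replicate number pairs libraries. Correlations of deviations were -0.07 to 0.104 over 18 same-numbered pairs, 1 above 0.1. Of 12 libraries, 5 correlated best with their own number. Between untreated and LPS-treated macrophages, same-numbered pairs were at 0.104, 0.097 and -0.053, and other pairs ranged from -0.137 to 0.048. Between the osteoclast groups they were at 0.072, 0.083 and 0.029, against -0.102 to 0.041. The replicate block changed no call of the 9 tested phosphatases of the family; 1930 genes were called for LPS in osteoclasts with it and 2008 without. Depth limits Dusp10, Dusp2 in untreated cells and Dusp14 in untreated and LPS-treated macrophages, with 6 to 49 reads per library.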
